A study of Mus musculus with 73 samples.

Results

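Fibrillar collagen and stromal matrix genes were followed across mouse tumors and the normal tissues they arose in. The set holds 8 genes, Col1a1, Col1a2, Sparc, Bgn, Lum, Ogn, Fbln2 and Tnc, taken as every array feature whose current or earlier symbol is one of these names. Each gene had 1 feature, so 8 of 9596 features and 8 of 6795 named genes were followed. RNA had been hybridised to 2-colour cDNA microarrays, which report for each feature the ratio of 2 RNAs labelled with different dyes. On 35 arrays a mouse tissue (Cy3) was set against a universal reference RNA (Cy5). A second set of 38 arrays paired mammary tumors (Cy5) directly with normal mammary gland (Cy3).

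The reference arrays cover tumors of mice that carry the SV40 T/t-antigen, a viral oncoprotein pair, and the matching tissue of wild-type mice. Of the pair, the large T antigen inactivates p53 and Rb. Prostate tumors (n = 5) and seminal vesicle tumors (n = 6) came from TRAMP mice on C57BL/6, in which the probasin promoter, active in prostate epithelium, drives the antigen. They were set against normal prostate (n = 4) and normal seminal vesicle (n = 4) of C57BL/6. Mammary tumors of C3(1)/SV40 T/t-antigen mice (n = 4) and lung tumors of CC10/SV40 T/t-antigen mice (n = 4) were FVB, as were normal mammary gland (n = 4) and normal lung (n = 4). The CC10 promoter belongs to a secretory protein of airway Clara cells. Strain therefore cannot be told apart from site between the C57BL/6 pair and the FVB pair of sites.

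The direct arrays hold p53-/- transplants in Balb/c (n = 5), p53fp/fp;WAP-cre tumors (n = 4) and Brca1 Co/Co;MMTV-cre;p53 tumors (n = 5), the last 2 in C57BL6/129sv. The FVB models are C3(1)/SV40 T/t-antigen with 5 tumors and the MMTV oncogene lines her2/neu (5 tumors), myc (4 tumors), ras (5 tumors) and PyMT (5 tumors). WAP and MMTV are promoters active in mammary epithelium, where they drive the cre recombinase or the oncogene. The normal gland on each direct array was wild-type and of the same labelled strain. No label says whether the samples of a group came from separate animals, so the p-values measure the spread between samples.

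Type I collagen, the main fibre of connective tissue, is built by fibroblasts from the chains of Col1a1 and Col1a2. Sparc (osteonectin) is a secreted glycoprotein that binds collagen, and Bgn (biglycan), Lum (lumican) and Ogn (osteoglycin) are small leucine-rich proteoglycans that sit on fibrils and help set their assembly. Fbln2 (fibulin-2) belongs to elastic fibres and basement membranes, and Tnc (tenascin-C) is a matrix glycoprotein that is scarce in most adult tissue and returns in wounds and tumors.

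Values are the authors' log2 ratios, where a difference of 1 is a doubling. They were read as sample over reference and as tumor over normal gland. In normal lung 6 of 6 lung epithelium markers, and in normal mammary gland 10 of 10 adipocyte markers, exceeded their average over the remaining normal tissues, while in normal prostate 0 of 2 measured prostate secretory markers did. The reference arrays held 9244 to 9572 values with medians of -0.047 to 0.009. The direct arrays held 7042 to 7934 values with medians of -0.416 to 0.663, so a common shift of an array is part of each direct value. All 8 genes had a value on each of the 35 reference arrays. On the 38 direct arrays Lum and Fbln2 had none, and Col1a1 had 34, Col1a2 36, Bgn 37, Ogn 37, Sparc 38 and Tnc 38. A log2 ratio depends on how much of the transcript the reference RNA holds, so levels are compared between samples for 1 gene and never between genes.

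In RefSeq (GRCm38.p6) Col1a1 spans chr11:94936224-94953042, Col1a2 chr6:4505618-4541543, Sparc chr11:55394159-55420080 and Bgn chrX:73483601-73495936. Lum spans chr10:97565501-97572703, Ogn chr13:49608015-49624501, Fbln2 chr6:91212460-91272540 and Tnc chr4:63959785-64047015. Where in its gene a feature lies is not given in the sources used here.

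Promoters of 6 of the 8 genes were found in RefSeq (GRCm38.p6), as windows of 250 bases before to 50 after the start of transcription. Those of 4 genes with contrasting patterns are shown, since these genes moved together or apart in the results that follow. Col1a2 lies on chr6:4505368-4505667 (plus strand), Bgn on chrX:73483351-73483650 (plus strand), Ogn on chr13:49607765-49608064 (plus strand) and Tnc on chr4:64046966-64047265 (minus strand). Each is written 5′ to 3′ on the strand of the gene, with CCAAT boxes (CCAAT or ATTGG), TATA boxes (TATAAA or TTTATA) and GC boxes (GGGCGG or CCGCCC) of either strand in capitals.
Col1a2: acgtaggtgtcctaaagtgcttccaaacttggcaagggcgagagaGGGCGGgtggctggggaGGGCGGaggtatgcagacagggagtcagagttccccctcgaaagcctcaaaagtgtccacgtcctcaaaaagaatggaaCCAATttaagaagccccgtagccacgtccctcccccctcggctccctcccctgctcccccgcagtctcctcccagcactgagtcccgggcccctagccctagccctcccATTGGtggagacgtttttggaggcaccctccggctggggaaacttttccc
Bgn: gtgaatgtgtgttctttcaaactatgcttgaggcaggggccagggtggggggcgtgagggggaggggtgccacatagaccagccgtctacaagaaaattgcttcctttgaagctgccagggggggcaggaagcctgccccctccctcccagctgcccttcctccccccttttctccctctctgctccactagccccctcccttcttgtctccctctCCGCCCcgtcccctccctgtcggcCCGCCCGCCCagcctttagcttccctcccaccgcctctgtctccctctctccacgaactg
Ogn: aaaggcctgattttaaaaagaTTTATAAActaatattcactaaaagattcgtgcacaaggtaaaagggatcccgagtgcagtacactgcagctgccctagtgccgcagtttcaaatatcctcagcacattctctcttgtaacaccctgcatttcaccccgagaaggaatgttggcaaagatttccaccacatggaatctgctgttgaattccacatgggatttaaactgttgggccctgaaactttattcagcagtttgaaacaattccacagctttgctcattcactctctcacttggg
Tnc: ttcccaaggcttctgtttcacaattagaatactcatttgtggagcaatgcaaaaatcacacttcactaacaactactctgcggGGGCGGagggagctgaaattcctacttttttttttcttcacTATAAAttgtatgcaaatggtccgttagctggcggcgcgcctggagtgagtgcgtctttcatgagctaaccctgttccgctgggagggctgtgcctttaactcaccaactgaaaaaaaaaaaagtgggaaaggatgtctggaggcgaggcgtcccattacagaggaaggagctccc
The Col1a2 window held 2 CCAAT boxes and 2 GC boxes, the Bgn window 3 GC boxes, and the Tnc window 1 TATA box and 1 GC box. The Ogn window held 2 overlapping TATA matches, 1 on each strand, and none of the other 2 motifs. All boxes are letter matches counted anywhere in a window. Their distance from the start of transcription was not assessed, so a match need not be a working box. Of 32851 promoter windows of this length, 37.4% held a CCAAT box, 13.6% a TATA box and 35.7% a GC box. GC content was 61.0% for Col1a2 and 63.7% for Bgn, against 42.3% for Ogn and 47.3% for Tnc. The windows of Sparc and Fbln2 are not shown, and Col1a1 and Lum had no entry. A second, overlapping Tnc window, chr4:64046887-64047186 (minus strand), is not shown either. It had a GC content of 54.0% and also held 1 TATA box and 1 GC box.

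The first question was where these genes stand among the 8 tissue groups. Among the 4 normal tissues 7 of the 8 genes differed (moderated F test of limma, Benjamini-Hochberg adjusted p from 6.62e-13 for Sparc to 1.94e-05 for Fbln2), and Tnc had an adjusted p of 0.272. In the same test 79.4% of all genes passed, so a passing gene is usual here. Mammary gland was the highest normal tissue for the collagen chains, Sparc, Lum and Fbln2, and lung was the highest for Bgn and Ogn. Normal seminal vesicle was the lowest normal tissue for Col1a1, Col1a2, Sparc, Bgn, Ogn and Fbln2.

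In the order of all 8 group means, Col1a1 ran from 0.64 ± 0.06 in normal mammary gland (SD, n = 4) to -2.83 ± 0.18 in normal seminal vesicle (SD, n = 4). Only 1 of its 7 steps, from normal lung to lung tumors, separated neighbours without overlap of their arrays. Col1a2 had 3 such gaps, below mammary tumors, below prostate tumors and below lung tumors. Sparc and Ogn had 2 each, and Bgn, Lum and Fbln2 had 1 each. Lum ran from 4.18 ± 0.23 in normal mammary gland (SD, n = 4) to 0.14 ± 0.27 in lung tumors (SD, n = 4). Tnc was nearly flat, with all 35 arrays between -0.38 and 0.32 and all 7 neighbouring pairs overlapping. Only ratios were used here, so how bright the Tnc feature was on these arrays was not assessed, and a flat ratio does not show that Tnc was unchanged. The plot of each gene by site shows these levels array by array.

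**Figure D1:**
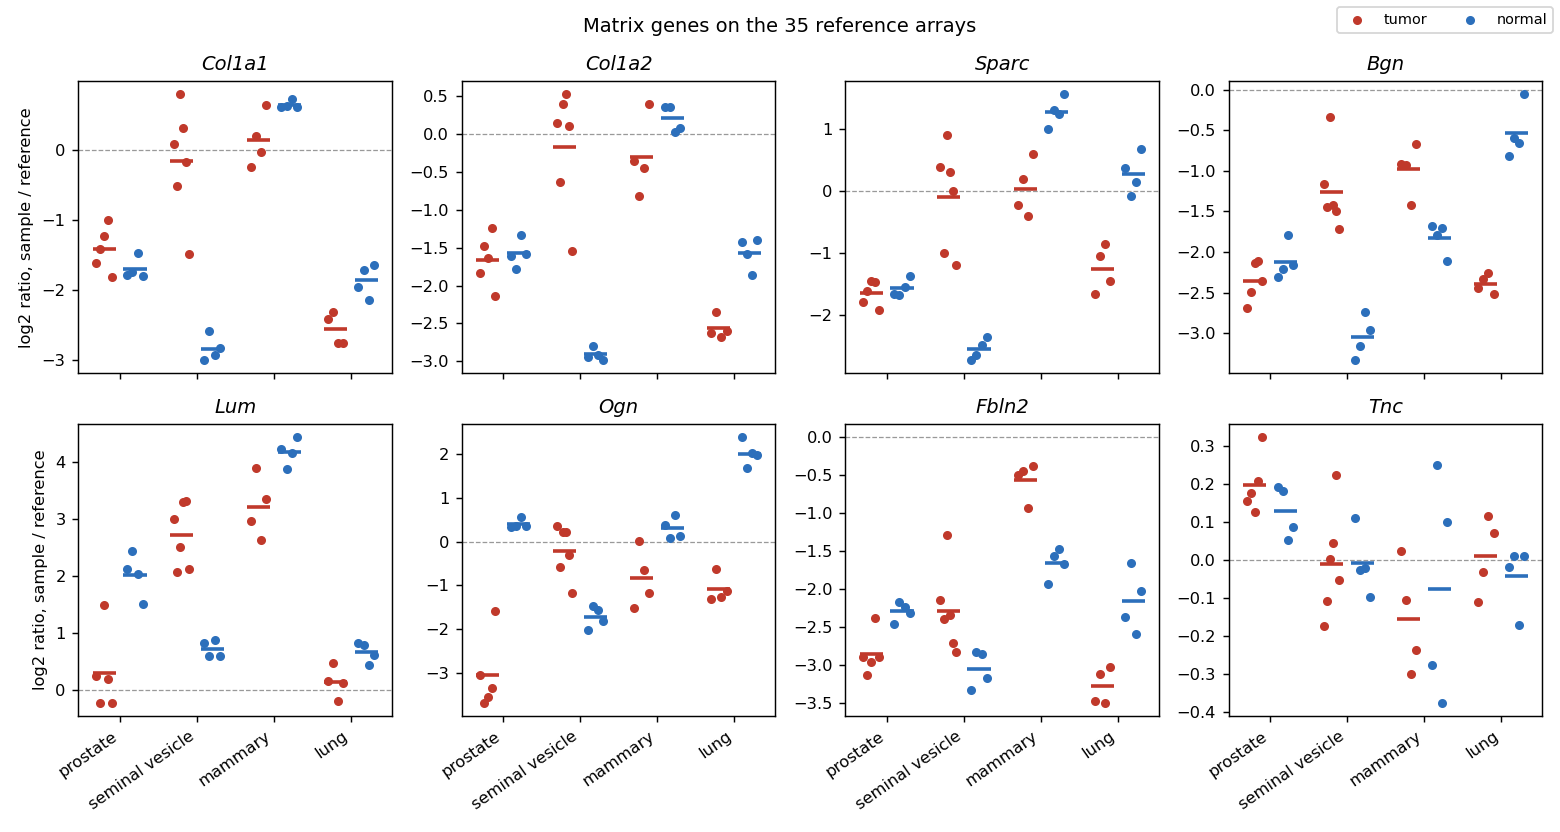
Log2 ratio of sample over reference RNA (vertical axes, scaled for each gene) for the 8 genes on 35 reference arrays, by site, with tumors to the left of normal tissue. Points are single arrays and bars are group means. In seminal vesicle the tumors lie above normal tissue for every gene but Tnc, in lung they lie below it for most, and all Tnc values lie between -0.38 and 0.32.

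Seminal vesicle tumors were compared with normal seminal vesicle. The matrix genes rose together: 7 of 8 passed, all higher, with a median change over the 8 genes of 1.89, and 43.5% of all genes passed. Of all genes 23.3% were higher and 20.2% lower. The tumor arrays lay above every normal array for each of the 7. The bulk tissue ratios cannot tell apart more matrix-producing cells from more RNA per cell, here and in every comparison that follows.

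Col1a1, the alpha-1 chain of type I collagen, had a median of -0.05 in seminal vesicle tumors (lowest -1.48, highest 0.79), against -3.00, -2.59, -2.92 and -2.83 in normal seminal vesicle. That is a change of 2.66 ± 0.24 (SE), or 6.34-fold (adjusted p = 2.38e-09). Its partner chain Col1a2 had a median of 0.12 in the tumors (lowest -1.54, highest 0.53), against -2.94, -2.79, -2.91 and -2.98 in normal tissue. It rose by 2.74 ± 0.25, or 6.68-fold (adjusted p = 2.68e-09). For both chains tumor 6 was the lowest tumor and still lay more than 1 log2 unit above the highest normal array.

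Sparc, which binds the collagen fibres these chains form, followed them. It had a median of 0.16 in the tumors (lowest -1.19, highest 0.91), against -2.73, -2.65, -2.48 and -2.35 in normal seminal vesicle. Its rise was 2.46 ± 0.26, or 5.50-fold (adjusted p = 2.45e-08). As with the collagen chains, the lowest tumor was tumor 6, and no tumor reached down to the normal arrays.

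The changes of the proteoglycans were smaller. Bgn had a median of -1.44 in the tumors (lowest -1.71, highest -0.34), against -3.33, -3.16, -2.74 and -2.96 in normal tissue, a rise of 1.78 ± 0.19 (adjusted p = 1.73e-08). Lum had a median of 2.76 (lowest 2.06, highest 3.32), against 0.83, 0.60, 0.88 and 0.59, a rise of 2.00 ± 0.27 (adjusted p = 9.09e-07). Ogn had a median of -0.04 (lowest -1.17, highest 0.36), against -2.02, -1.48, -1.57 and -1.82, a rise of 1.52 ± 0.30 (adjusted p = 0.00016). In all 3 genes every tumor array exceeded every normal array, with the narrowest gap in Ogn.

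Fbln2, the fibulin, moved least of the 7. Its tumor median was -2.37 (lowest -2.83, highest -1.29), against -3.33, -2.83, -2.86 and -3.17 in normal tissue, a rise of 0.76 ± 0.20 (adjusted p = 0.00294). The lowest tumor and the highest normal array almost touched. Tnc had a tumor median of -0.03 (lowest -0.17, highest 0.22), against 0.11, -0.03, -0.02 and -0.10 in normal tissue, and its groups overlapped (adjusted p = 0.988).

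The label of each array gives its mAdb number, and a gap of more than 20 in these numbers was taken to start a new stretch of arrays, as a possible batch. No stretch holds both seminal vesicle tumors and normal seminal vesicle, so no value within a stretch can be had. With the stretch as a fixed factor over all reference arrays, Lum was at 1.32 (adjusted p = 0.161) and Ogn at 1.80 (adjusted p = 0.113), neither past the threshold. In that fit Col1a1 was at 3.42, Col1a2 at 3.34, Bgn at 2.77 and Fbln2 at 1.56, all past it. The stretch of normal seminal vesicle holds only mammary tumor 4 besides. It is tied to the other stretches through that array alone, so this fit cannot decide whether the calls survive a batch. Under quantile normalization Fbln2 was at 0.04 (adjusted p = 0.906).

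Genes that make and remodel collagen were read from lists chosen for their function. Of 9 measured other collagen chains 8 rose and 0 fell in seminal vesicle tumors, among them Col4a1 at 1.99 ± 0.19 and Col4a2 at 1.78 ± 0.18, the main chains of basement membrane collagen, and the feature annotated Col2a1 at 2.47 ± 0.26. Of 11 genes of collagen folding, processing and crosslinking 8 rose and 1 fell. Serpinh1, the collagen chaperone HSP47, rose by 2.33 ± 0.24 and Lox, the crosslinking lysyl oxidase, by 1.50 ± 0.26, while Bmp1, a procollagen C-proteinase, fell by 1.06 on the log2 scale (SE 0.13). Of 6 matrix proteases and inhibitors 3 rose, led by the gelatinase Mmp2 at 1.32 ± 0.18.

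The rise was not shared by every matrix list. Of 8 other small leucine-rich and large proteoglycans 0 rose and 2 fell, Fmod (fibromodulin) by 0.90 on the log2 scale (SE 0.14) and Acan (aggrecan) by 0.53 on the log2 scale (SE 0.18). Of 21 other elastic fibre and matricellular genes 12 rose and 0 fell. Of 6 measured fibroblast markers 2 rose and 1 fell, with Pdgfra at 1.31 ± 0.31, Pdgfrb at 0.66 ± 0.15 and Thy1 at -0.53 ± 0.16. The mean of the fibroblast markers ran from -0.79 to -0.21 in seminal vesicle tumors, against -0.69 to -0.56 in normal seminal vesicle. Smooth muscle markers rose for 3 of 8 and fell for 0, and epithelial markers rose for 4 of 9 and fell for 1. Their part in the rise of the matrix genes was not tested.

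Prostate tumors, from the same transgene and strain, showed a different picture. Here 3 of the 8 genes passed, all lower, with a median change of -0.17, and 61.4% of all genes passed (29.2% higher, 32.2% lower). Ogn was the strongest: it had -3.05, -3.69, -3.56, -3.34 and -1.59 in prostate tumors, against 0.33, 0.35, 0.56 and 0.35 in normal prostate. It fell by 3.44 on the log2 scale (SE 0.31), or 10.9-fold (adjusted p = 3.23e-11). Tumor 5, the highest of the tumors, is also the only prostate tumor array that shares a stretch of array numbers with normal prostate, and within that stretch Ogn was at -2.0, a value that rests on 1 tumor array.

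Lum had 0.25, -0.23, 1.50, 0.19 and -0.23 in prostate tumors, against 2.12, 2.44, 2.03 and 1.51 in normal prostate. It fell by 1.73 on the log2 scale (SE 0.28, adjusted p = 2.88e-06). Tumor 3 reached almost to the lowest normal array, and the other 4 tumors lay well below. Fbln2 had -2.90, -3.13, -2.97, -2.39 and -2.89 in tumors, against -2.46, -2.17, -2.23 and -2.31 in normal prostate, a change of -0.56 ± 0.21 (adjusted p = 0.0219) with overlapping groups. That call was lost without normal prostate 2 (-0.52, adjusted p = 0.0559), without prostate tumor 2 (-0.49, adjusted p = 0.0578), under quantile normalization (-0.35, adjusted p = 0.126) and with the stretch as a fixed factor (-0.50, adjusted p = 0.143). Within the first stretch, with 1 tumor array assumed to vary like the other groups, the change was -0.60 (adjusted p = 0.106).

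The collagen chains did not pass in prostate. Col1a1 had -1.61, -1.41, -1.22, -1.001 and -1.81 in tumors, against -1.78, -1.74, -1.47 and -1.80 in normal prostate (0.29 ± 0.25, adjusted p = 0.333). Col1a2 was at -0.09 ± 0.26 (adjusted p = 0.785), Sparc at -0.08 ± 0.27 (adjusted p = 0.815) and Bgn at -0.24 ± 0.19 (adjusted p = 0.291), each with overlapping groups. Tnc was at 0.07 ± 0.10 (adjusted p = 0.566). With the stretch as a fixed factor Col1a2 was at -0.44 (adjusted p = 0.245). Within the first stretch, which holds 1 prostate tumor array, Col1a2 was at -0.57, Sparc at -0.29, Bgn at -0.25 and Col1a1 at -0.14.

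Muscle and fat markers moved with the prostate result. All 14 measured skeletal muscle markers fell, and their mean ran from -0.13 to 0.15 in prostate tumors, against 3.57 to 4.46 in normal prostate. Of 8 smooth muscle markers 7 fell and 1 rose, with means of -0.54 to -0.25 in tumors, against 1.34 to 1.65 in normal prostate. All 10 adipocyte markers fell, with means of -0.12 to 0.09, against 1.71 to 1.97. Of 6 fibroblast markers 3 fell and 1 rose, with means of -1.65 to -0.69, against -0.34 to -0.19. All 9 epithelial markers fell as well. The part of these tissues in the fall of Ogn, Lum and Fbln2 was not tested.

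Other matrix genes in prostate tumors mostly fell where they passed, beside 32.2% of all genes lower and 29.2% higher. Of 21 other elastic fibre and matricellular genes 11 fell and 0 rose, led by Smoc2, a secreted calcium-binding relative of Sparc, at -2.53 ± 0.23. Of 8 other proteoglycans 5 fell and 1 rose, with Acan at -1.60 ± 0.18, Dcn (decorin, also among the fibroblast markers) at -1.21 ± 0.20 and Hspg2 (perlecan) at -0.92 ± 0.14. Of 9 other collagen chains 1 rose, Col4a2 at 0.52 ± 0.19, and 1 fell, Col14a1 at -0.30 ± 0.09.

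The tumor change in seminal vesicle was then set against that in prostate. It was larger for 7 of 8 genes, where 46.7% of all genes differed, and the difference was greatest for Ogn at 4.96 ± 0.44 (adjusted p = 4.95e-11) and Lum at 3.73 ± 0.39 (adjusted p = 2.07e-09). Col1a2 differed by 2.83 ± 0.36, Sparc by 2.54 ± 0.38, Col1a1 by 2.38 ± 0.35, Bgn by 2.02 ± 0.27 and Fbln2 by 1.32 ± 0.29. For Fbln2 the difference was 0.39 under quantile normalization (adjusted p = 0.252). Among the tumors themselves, seminal vesicle tumors were higher than prostate tumors for 7 genes and lower for Tnc, so 8 of 8 passed beside 60.7% of all genes.

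In that comparison of tumors, Ogn was higher in seminal vesicle tumors by 2.84 ± 0.28, Lum by 2.42 ± 0.25, Sparc by 1.55 ± 0.25 and Bgn by 1.09 ± 0.18, each with no overlap of arrays. Col1a1 was higher by 1.24 ± 0.23 and Col1a2 by 1.50 ± 0.24, where the lowest seminal vesicle tumor, tumor 6, fell inside the range of the prostate tumors. Fbln2 was higher by 0.57 ± 0.19 (adjusted p = 0.0107), lost its call with only these groups fitted (0.57, adjusted p = 0.0508) and was at -0.15 under quantile normalization. Tnc was lower by 0.21 on the log2 scale (change -0.21 ± 0.09, adjusted p = 0.0454), and this call was lost without any of seminal vesicle tumors 1, 2, 3 or 6 or prostate tumors 1, 2, 4 or 5 (adjusted p of 0.0521 to 0.115). It was also lost with the replicate block (-0.20, adjusted p = 0.0622) and with the stretch as a fixed factor (-0.24, adjusted p = 0.126).

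**Figure D2:**
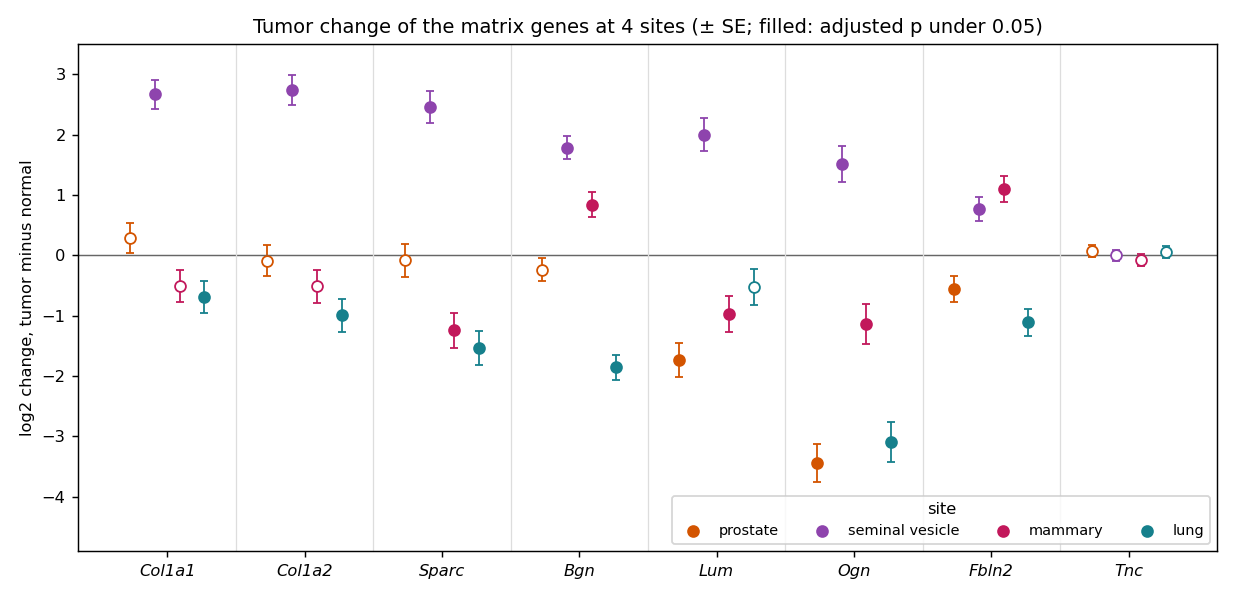
Log2 change of tumor minus normal tissue (vertical axis) for each of the 8 genes at 4 sites, where bars are standard errors from limma. Filled points passed at an adjusted p under 0.05. Seminal vesicle points lie above 0 for all genes but Tnc, and the Bgn and Fbln2 points of mammary gland lie above 0 while those of lung lie below it.

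In mammary tumors of C3(1)/SV40 T/t-antigen mice the set split. Of the 8 genes 5 passed, 2 higher and 3 lower, with a median change of -0.51, where 36.7% of all genes passed. Among all genes 16.6% were higher and 20.1% lower. Fbln2 and Bgn rose. Fbln2 had -0.50, -0.44, -0.93 and -0.38 in mammary tumors, against -1.94, -1.57, -1.47 and -1.67 in normal mammary gland, a change of 1.10 ± 0.22 (adjusted p = 0.000173). Bgn had -0.92, -0.93, -1.42 and -0.66 in tumors, against -1.68, -1.79, -1.70 and -2.11 in normal gland, a change of 0.84 ± 0.21 (adjusted p = 0.00142). No tumor array of these genes overlapped the normal arrays.

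Sparc, Ogn and Lum fell. Sparc had -0.21, 0.20, -0.40 and 0.60 in mammary tumors, against 1.01, 1.31, 1.25 and 1.57 in normal gland, a change of -1.24 ± 0.29 (adjusted p = 0.000836). Ogn had -1.51, 0.01, -0.66 and -1.16 in tumors, against 0.37, 0.09, 0.60 and 0.14, a change of -1.13 ± 0.33 (adjusted p = 0.0067). Tumor 2 lay just under the lowest normal array for Ogn. Lum had 2.97, 3.89, 2.63 and 3.35 in tumors, against 4.23, 3.88, 4.17 and 4.44, a change of -0.97 ± 0.30 (adjusted p = 0.00925). Its groups overlapped through tumor 2, and the call was lost without mammary tumor 3 (-0.78, adjusted p = 0.054) and under quantile normalization (-0.06, adjusted p = 0.89).

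The collagen chains did not pass in mammary tumors, and their call changed with the setting. Col1a1 had -0.25, 0.19, -0.03 and 0.63 in mammary tumors, against 0.60, 0.62, 0.73 and 0.60 in normal gland (-0.50 ± 0.27, adjusted p = 0.141). Col1a2 had -0.36, -0.82, -0.45 and 0.40, against 0.36, 0.36, 0.03 and 0.08 (-0.52 ± 0.28, adjusted p = 0.147). In both, tumor 4 lay among or above the normal arrays and the other 3 tumors below them. Tumor 4 is also the only mammary tumor outside the first stretch of array numbers. Within that stretch Col1a1 was at -0.68 (adjusted p = 0.0035) and Col1a2 at -0.80 (adjusted p = 0.00136), and with the stretch as a fixed factor they were at -0.71 (adjusted p = 0.0447) and -0.78 (adjusted p = 0.0195). Without tumor 4 Col1a2 passed (-0.75, adjusted p = 0.0384). With the replicate block both passed, Col1a1 at -0.50 (adjusted p = 0.0367) and Col1a2 at -0.52 (adjusted p = 0.0415), and Col1a1 also passed with only the mammary groups fitted (adjusted p = 0.0422).

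Other genes of the matrix were as mixed in mammary tumors. Of 21 elastic fibre and matricellular genes 7 rose and 6 fell, among them Mgp, the matrix Gla protein, at 1.95 ± 0.33, and Efemp1 (fibulin-3) at -1.19 ± 0.23. Of 9 other collagen chains 4 fell and 1 rose, with Col4a2 at -1.67 ± 0.20, Col4a1 at -0.92 ± 0.21 and Col12a1 at 1.02 ± 0.12. All 10 adipocyte markers fell, with means of 0.40 to 1.92 in mammary tumors, against 3.30 to 3.76 in normal gland. Of 6 fibroblast markers 2 fell and 1 rose, with means of -0.57 to -0.29, against -0.22 to 0.0016. The part of fat and fibroblasts in the change of the matrix genes was not tested.

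Lung tumors of CC10/SV40 T/t-antigen mice had less of nearly the whole set. Of the 8 genes 6 passed, all lower, with a median change of -1.06, where 36.5% of all genes passed. By direction 16.2% of all genes were higher and 20.4% lower. Ogn changed most: it had -1.31, -0.62, -1.27 and -1.12 in lung tumors, against 2.39, 1.67, 2.01 and 1.97 in normal lung, a change of -3.09 ± 0.33, or 8.54-fold lower (adjusted p = 6.39e-09). Bgn had -2.44, -2.33, -2.26 and -2.52 in tumors, against -0.82, -0.59, -0.66 and -0.06, a change of -1.86 ± 0.21 (adjusted p = 1.2e-08). For both proteoglycans the groups were more than 1 log2 unit apart at their nearest arrays.

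Sparc had -1.66, -1.05, -0.84 and -1.45 in lung tumors, against 0.38, -0.07, 0.15 and 0.69 in normal lung, a change of -1.54 ± 0.29 (adjusted p = 7.38e-05). Fbln2 had -3.47, -3.11, -3.50 and -3.03, against -2.36, -1.66, -2.60 and -2.03, a change of -1.11 ± 0.22 (adjusted p = 0.000156). Both were lower in each tumor than in each normal lung. Col1a2 had -2.62, -2.35, -2.68 and -2.60, against -1.42, -1.59, -1.85 and -1.40, a change of -0.997 ± 0.28 (adjusted p = 0.00449).

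Col1a1 moved like its partner chain but by less. It had -2.41, -2.31, -2.75 and -2.75 in lung tumors, against -1.95, -1.72, -2.14 and -1.64 in normal lung, a change of -0.69 ± 0.27 (adjusted p = 0.0393) with no overlap. The call was lost without any of lung tumors 3 or 4 or normal lungs 1, 2 or 4 (adjusted p of 0.0544 to 0.0997), under quantile normalization (-0.47, adjusted p = 0.207) and with the stretch as a fixed factor (-0.61, adjusted p = 0.0681). Lum had 0.16, 0.47, -0.20 and 0.11 in tumors, against 0.82, 0.78, 0.44 and 0.61, overlapping (-0.53 ± 0.30, adjusted p = 0.168). It passed with only the lung groups fitted (adjusted p = 0.0162). Tnc was at 0.05 ± 0.11 (adjusted p = 0.728).

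Other matrix genes in lung tumors also mostly fell where they passed, beside 20.4% of all genes lower. Of 9 other collagen chains 7 fell and 0 rose, with Col6a1 at -1.29 ± 0.22, and of 12 genes of collagen folding, processing and crosslinking 7 fell and 1 rose, with the lysyl oxidase relative Loxl3 at -1.91 ± 0.19 and Lox at -1.18 ± 0.29. Of 21 elastic fibre and matricellular genes 8 fell and 0 rose, with Ltbp4, which tethers latent TGF-beta to the matrix, at -1.62 ± 0.19. Endothelial markers fell for 8 of 8, with means of 0.53 to 0.91 in lung tumors, against 1.72 to 2.45 in normal lung. Fibroblast markers fell for 3 of 6 and rose for 0, with means of -1.31 to -1.08, against -0.26 to 0.06. Epithelial markers rose for 7 of 9. The part of these cell types in the matrix change was not tested.

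The lung change was set against the mammary change, both in FVB. It was lower for 3 of 8 genes, Bgn at -2.69 ± 0.29 (adjusted p = 3.96e-08), Fbln2 at -2.21 ± 0.31 (adjusted p = 3.84e-06) and Ogn at -1.96 ± 0.47 (adjusted p = 0.00223), where 24.2% of all genes differed. Bgn and Fbln2 went opposite ways, lower in lung tumors and higher in mammary tumors. The collagen chains and Sparc did not pass in this contrast, with Col1a1 at -0.19 ± 0.37, Col1a2 at -0.48 ± 0.39 and Sparc at -0.29 ± 0.41. Across all 4 sites the tumor change differed for 7 of 8 genes (moderated F of 23.5 for Fbln2 to 62.4 for Bgn), beside 74.1% of all genes, and Tnc had an adjusted p of 0.761.

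The 6 genes with values on the direct arrays were then described in 8 mammary tumor models, each tested against 0, the value at which tumor and normal gland are equal. Their counts stood beside the background of each model. Of the 6 genes 3 passed in p53-/- transplants (14.4% of all genes), 3 in p53fp/fp;WAP-cre tumors (22.7%), 3 in Brca1 Co/Co;MMTV-cre;p53 tumors (46.9%) and 3 in C3(1)/SV40 T/t-antigen tumors (46.2%). In all 4 the 3 genes were Bgn and Tnc, higher, and Ogn, lower. Among the MMTV oncogene models 5 passed in her2/neu (17.5%), 4 in myc (23.5%), 2 in ras (20.2%) and 2 in PyMT (21.2%). The share of all genes higher in a model ran from 5.96% (p53-/- transplants) to 41.8% (C3(1)/SV40 T/t-antigen). The share lower ran from 2.72% (myc) to 12.1% (Brca1 Co/Co;MMTV-cre;p53). Because dyes were never swapped, a dye bias of a feature would enter every direct value, and the spread of normal gland does not enter the test against 0.

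**Figure D3:**
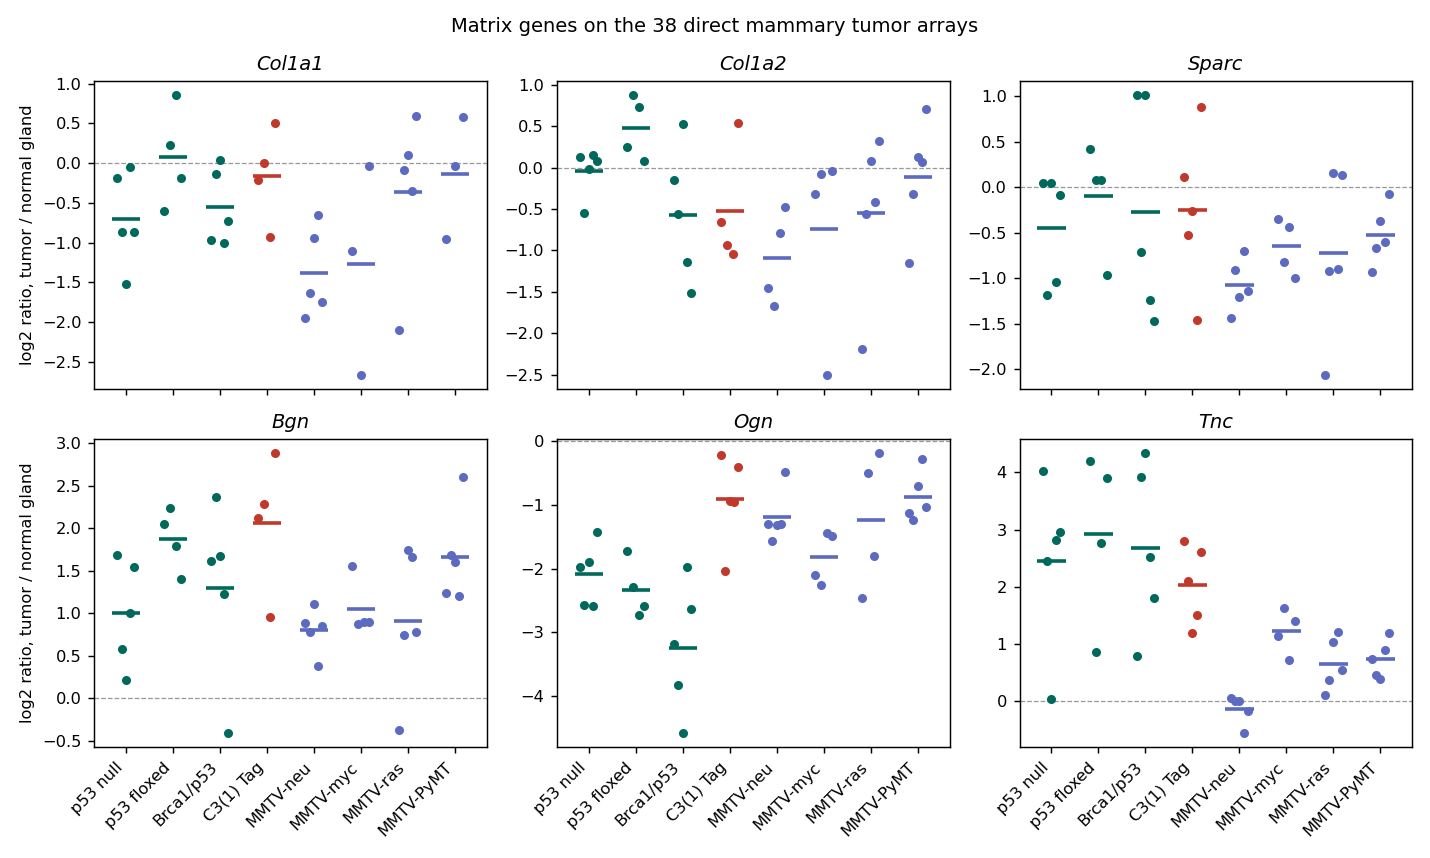
Log2 ratio of tumor over normal gland (vertical axes, scaled for each gene) for the 6 genes with values on 38 direct arrays, in 8 mammary tumor models. Points are single arrays (green for the p53 and Brca1 models, red for C3(1), blue for the MMTV oncogene models), bars are means and the dashed line is 0. Ogn lies below 0 on all its 37 arrays, Bgn lies above 0 on 35 of 37, and Tnc is highest in the p53, Brca1/p53 and C3(1) models.

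Ogn was lower in 8 of 8 models, and all of its 37 values were below 0. It had -3.19, -3.83, -4.58, -1.98 and -2.64 in Brca1 Co/Co;MMTV-cre;p53 tumors, the largest fall, at -3.24 ± 0.28 or 9.48-fold lower (adjusted p = 1.13e-11). In p53-/- transplants it had -1.97, -2.57, -1.89, -2.58 and -1.42 (-2.09 ± 0.28, adjusted p = 5.39e-07), and in p53fp/fp;WAP-cre tumors -1.72, -2.28, -2.73 and -2.58 (-2.33 ± 0.31, adjusted p = 5.55e-07). Every array of these 3 models showed more than a halving.

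The falls of Ogn were smaller in the other models. It had -2.10, -2.25, -1.44 and -1.49 in MMTV-myc tumors (-1.82 ± 0.31, adjusted p = 6.01e-05) and -1.29, -1.56, -1.31, -1.30 and -0.48 in MMTV-her2/neu tumors (-1.19 ± 0.28, adjusted p = 0.00224). In MMTV-ras it had 4 values, -2.46, -0.50, -1.81 and -0.19 (-1.24 ± 0.31, adjusted p = 0.00422). These spread widely, and the call was lost without replicate 1 (-0.83, adjusted p = 0.0747). In C3(1) tumors it had -0.22, -2.03, -0.94, -0.96 and -0.40 (-0.91 ± 0.28, adjusted p = 0.00725), lost without replicate 2 (-0.63, adjusted p = 0.103). In MMTV-PyMT it had -1.13, -1.23, -0.71, -0.29 and -1.03 (-0.88 ± 0.28, adjusted p = 0.02), lost without replicate 1, 2 or 5 (adjusted p of 0.0706 to 0.0811).

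Fat and muscle markers were lower in the same models as Ogn. Of 10 adipocyte markers 7 to 10 fell in each model and 0 rose, and their mean was lowest in Brca1 Co/Co;MMTV-cre;p53 tumors, at -3.31 ± 0.61 (SD, n = 5), the model with the lowest Ogn. Over 37 arrays, which share the model and the normal gland, Pearson's r of Ogn with the mean of the adipocyte markers was 0.756, and 0.663 over deviations from the model means. Of 14 skeletal muscle markers 9 to 14 fell in each model and 0 rose. With their mean r was 0.670, and 0.214 over deviations. What part fat and muscle take in the Ogn values was not tested.

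Bgn was higher in 8 of 8 models, opposite to Ogn although both are small leucine-rich proteoglycans. It had 2.13, 2.29, 0.95 and 2.88 in C3(1) tumors (2.06 ± 0.31, or 4.18-fold, adjusted p = 1.8e-06). It had 2.05, 2.24, 1.79 and 1.41 in p53fp/fp;WAP-cre tumors (1.87 ± 0.31, adjusted p = 2.21e-05) and 1.24, 1.68, 1.60, 1.20 and 2.60 in MMTV-PyMT tumors (1.67 ± 0.28, adjusted p = 3.47e-05). All arrays of these 3 models were above 0. With arrays centred on their medians Bgn was at 1.71 in C3(1) and 1.96 in p53fp/fp;WAP-cre tumors, so the order of these models turned, and the test among the 8 models gave an adjusted p of 0.0576. In Brca1 Co/Co;MMTV-cre;p53 tumors it had 1.62, 2.37, 1.67, 1.22 and -0.41 (1.30 ± 0.28, adjusted p = 0.000253), where replicate 5 lay below 0.

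In the other 4 models Bgn rose by about 1 log2 unit and its call depended on single arrays. It had 1.69, 0.58, 0.21, 1.01 and 1.55 in p53-/- transplants (1.01 ± 0.28, adjusted p = 0.0101), lost without replicate 1 (0.84, adjusted p = 0.0825) or replicate 5 (0.87, adjusted p = 0.0591). In MMTV-myc it had 1.55, 0.87, 0.89 and 0.90 (1.05 ± 0.31, adjusted p = 0.0125), lost without replicate 1 (0.89, adjusted p = 0.0893). In both models all arrays were above 0.

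In MMTV-ras tumors Bgn had -0.37, 0.74, 1.74, 1.67 and 0.78 (0.91 ± 0.28, adjusted p = 0.018). That call was lost without replicate 3 (0.70, adjusted p = 0.148) or 4 (0.72, adjusted p = 0.114) and with arrays centred on their medians (0.73, adjusted p = 0.0611). In MMTV-her2/neu tumors it had 0.89, 0.78, 1.11, 0.38 and 0.85 (0.80 ± 0.28, adjusted p = 0.0409), a tight group above 0. There the call was lost without replicate 1, 2, 3 or 5 (adjusted p of 0.0905 to 0.13) and with the replicate block (0.80, adjusted p = 0.0509).

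Tnc, tenascin-C, was higher in 5 of 8 models, and on the direct arrays it had the widest range of the 6 genes. It had 4.20, 0.86, 2.77 and 3.90 in p53fp/fp;WAP-cre tumors (2.93 ± 0.44, or 7.63-fold, adjusted p = 3.7e-06). It had 0.79, 3.93, 4.34, 2.53 and 1.81 in Brca1 Co/Co;MMTV-cre;p53 tumors (2.68 ± 0.39, adjusted p = 9.26e-07) and 4.02, 2.44, 0.04, 2.83 and 2.95 in p53-/- transplants (2.46 ± 0.39, adjusted p = 1.31e-05). Each of these 3 models had 1 array under 1, and the others lay between 1.81 and 4.34.

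In C3(1) tumors Tnc had 2.80, 2.10, 1.19, 1.50 and 2.62 (2.04 ± 0.39, adjusted p = 6e-05), all well above 0. The same model on the reference arrays gave -0.08 ± 0.11, with 0.02, -0.11, -0.30 and -0.24 in mammary tumors, against -0.28, 0.25, -0.38 and 0.10 in normal gland. The difference between the array sets was not tested, and they differ in dye orientation, in the partner RNA and in the stretch of array numbers. Bgn in this model was 2.06 on the direct arrays and 0.84 on the reference arrays, and Ogn was -0.91 and -1.13. Sparc was at -0.25 on the direct arrays (adjusted p = 0.508) and at -1.24 on the reference arrays (adjusted p = 0.000836).

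Among the MMTV oncogene models Tnc had 1.14, 1.63, 0.72 and 1.41 in myc tumors (1.22 ± 0.44, adjusted p = 0.0385). That call was lost without any 1 of the 4 arrays (adjusted p of 0.0612 to 0.142), with arrays centred on their medians (1.01, adjusted p = 0.105), under quantile normalization (1.02, adjusted p = 0.0814) and with the stretch as a random block (1.22, adjusted p = 0.0619). Tnc did not pass in PyMT (0.74 ± 0.39, adjusted p = 0.177) or ras (0.66 ± 0.39, adjusted p = 0.247), although all 5 arrays of each were above 0. Both passed with only that model fitted (adjusted p of 0.000359 and 0.0134). In her2/neu tumors it had 0.06, 0.01, 0.01, -0.55 and -0.17, on both sides of 0 (-0.13 ± 0.39, adjusted p = 0.864).

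The collagen chains and Sparc passed in few models, always lower. In MMTV-her2/neu tumors Col1a1 had -1.95, -1.63, -0.95, -0.65 and -1.74 (-1.38 ± 0.31, adjusted p = 0.00149) and Col1a2 had 4 values, -1.46, -1.67, -0.79 and -0.47 (-1.10 ± 0.34, adjusted p = 0.0229). Sparc had -1.43, -0.90, -1.21, -0.70 and -1.14 there (-1.08 ± 0.30, adjusted p = 0.00955). All arrays of the 3 genes were below 0 in this model. Col1a2 lost its call without replicate 1 (-0.98, adjusted p = 0.116) or 2 (-0.91, adjusted p = 0.134), and Sparc without replicate 1 (-0.99, adjusted p = 0.0519). With the stretch as a random block Col1a2 was at -0.95 (adjusted p = 0.07) and Sparc at -0.87 (adjusted p = 0.0552).

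In MMTV-myc tumors Col1a1 had 3 values, -1.10, -2.66 and -0.03 (-1.27 ± 0.40, adjusted p = 0.0188), so 1 tumor was close to 0 and 1 far below it. It was at -0.57 without replicate 3 (adjusted p = 0.446), at -1.35 without replicate 1 (adjusted p = 0.0575), and at an adjusted p of 0.0947 with only this model fitted. In the other 6 models Col1a1 lay between -0.70 in p53-/- transplants and 0.08 in p53fp/fp;WAP-cre tumors, and in the other 7 Col1a2 lay between -0.74 in MMTV-myc tumors and 0.48 in p53fp/fp;WAP-cre tumors. Sparc was below 0 on average in all 8 models, from -1.08 to -0.10. Of its 38 values 27 were below 0.

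Some of these values passed under another setting. With arrays centred on their medians Col1a2 passed in Brca1 Co/Co;MMTV-cre;p53 tumors (-0.78, adjusted p = 0.0441) and C3(1) tumors (-0.88, adjusted p = 0.0481), and Sparc passed in MMTV-myc (-0.87, adjusted p = 0.0476) and MMTV-ras tumors (-0.90, adjusted p = 0.0247). Col1a2 also passed in the Brca1 model without replicate 3 (-0.84, adjusted p = 0.0396), and Sparc in MMTV-ras without replicate 5 (-0.93, adjusted p = 0.045). With only 1 model fitted, Col1a1 passed in p53-/- transplants (adjusted p = 0.0427) and Sparc passed in MMTV-ras (adjusted p = 0.00823) and MMTV-PyMT tumors (adjusted p = 0.0156).

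Among the 8 models the tumor change differed for 2 of the 6 genes, Ogn (F = 8.59, adjusted p = 0.000102) and Tnc (F = 7.66, adjusted p = 0.000199), beside 43.0% of all genes. The 3 p53 and Brca1 models were set against the 4 MMTV oncogene models, a contrast in which strain and the stretch of array numbers differ too and cannot be told apart from the model. Again 2 of 6 genes differed, Tnc higher by 2.07 ± 0.31 (adjusted p = 6.01e-06) and Ogn at -1.27 ± 0.22 (adjusted p = 6.15e-05), beside 20.4% of all genes. Under quantile normalization Ogn was at -0.48 (adjusted p = 0.0519), while Col1a2 at 0.84 (adjusted p = 0.0249) and Sparc at 0.70 (adjusted p = 0.00651) then passed. Bgn was at 0.28 ± 0.22 (adjusted p = 0.395).

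C3(1) tumors and the MMTV oncogene models are all FVB. Tnc was higher in C3(1) tumors than in the mean of these models by 1.42 ± 0.44 (adjusted p = 0.0228) and Bgn by 0.95 ± 0.34 (adjusted p = 0.0484), so 2 of 6 passed beside 17.6% of all genes. Neither call held with arrays centred on their medians (Tnc 1.17, adjusted p = 0.0946, and Bgn 0.68, adjusted p = 0.195). The medians of the C3(1) arrays ran from 0.04 to 0.66, against -0.18 to 0.07 in her2/neu, -0.02 to 0.52 in myc, -0.15 to 0.63 in ras and -0.42 to 0.28 in PyMT tumors. Tnc was also lost without C3(1) replicate 1, 2 or 5 (adjusted p of 0.0654 to 0.103). Bgn was lost without any of C3(1) replicates 1, 2, 3 or 5, and without each MMTV array other than myc replicate 1, ras replicates 3 and 4 and PyMT replicate 5 (adjusted p of 0.0505 to 0.292). C3(1) replicate 1 holds no Bgn value itself. With the replicate block Bgn was at 0.95 (adjusted p = 0.0673), and under quantile normalization Tnc was at 1.07 (adjusted p = 0.113) and Bgn at 0.53 (adjusted p = 0.258).

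Across the mammary models other matrix genes gave a varied picture. Of 9 other collagen chains 0 to 3 rose and 0 to 2 fell in each model. Col18a1, whose chain carries the endostatin fragment, rose in p53-/- transplants (0.96 ± 0.18), p53fp/fp;WAP-cre (1.96 ± 0.20), Brca1 Co/Co;MMTV-cre;p53 (1.20 ± 0.18) and C3(1) tumors (0.51 ± 0.18). The Dcn feature, decorin, was lower in Brca1 Co/Co;MMTV-cre;p53 (-2.43 ± 0.39), C3(1) (-1.61 ± 0.39), her2/neu (-1.62 ± 0.39), myc (-1.45 ± 0.50), ras (-1.51 ± 0.39) and PyMT tumors (-1.32 ± 0.39). Among receptors for the matrix, Ddr1, an epithelial collagen receptor kinase, rose in 7 models, by 1.15 ± 0.27 in PyMT tumors to 1.83 ± 0.35 in myc tumors.

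Fibroblast markers rose for 0 to 3 and fell for 1 or 2 of 6 in each model, and their mean ran from -0.75 ± 0.23 in p53-/- transplants (SD, n = 5) to 0.18 ± 0.30 in C3(1) tumors (SD, n = 5). It was -0.44 ± 0.13 in her2/neu tumors (SD, n = 5), where the collagen chains were lowest. Their part in the collagen values was not tested. Over the direct arrays, r with the mean of the macrophage markers was 0.680 for Sparc, 0.628 for Bgn, 0.523 for Tnc, 0.500 for Col1a2, 0.388 for Col1a1 and -0.351 for Ogn. Over deviations from the model means, r with the macrophage markers was 0.704 for Bgn, 0.654 for Sparc and 0.600 for Col1a2. There it was 0.399 for Col1a1, 0.377 for Tnc and -0.101 for Ogn. With the mean of the fibroblast markers, r over the direct arrays was 0.247 for Sparc, 0.225 for Bgn and 0.060 for Tnc. It was 0.050 for Col1a1, -0.033 for Col1a2 and 0.458 for Ogn. Over deviations from the model means, r with the fibroblast markers was 0.393 for Tnc, 0.34 for Sparc and 0.191 for Ogn. There it was 0.114 for Bgn, 0.048 for Col1a2 and -0.017 for Col1a1. With the mean of the smooth muscle markers, r over deviations was 0.679 for Sparc, 0.569 for Bgn and 0.352 for Col1a2. It was 0.084 for Ogn, 0.077 for Tnc and 0.076 for Col1a1. These correlations are descriptions over arrays that share models and normal gland.

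Likeness among the genes was last described by Pearson's r over arrays, which share a tissue or model within groups. Col1a1 and Col1a2 were each other's nearest gene among 6235 compared, with r = 0.971 over 35 reference arrays and 0.865 over deviations from the group means. The next for both was the feature annotated Col2a1, with r of 0.968 and 0.958. Whether spots of related collagens bind each other's transcripts was not tested. After it came Col5a2 for Col1a1 (r = 0.899) and Col6a1 for Col1a2 (r = 0.901).

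**Figure D4:**
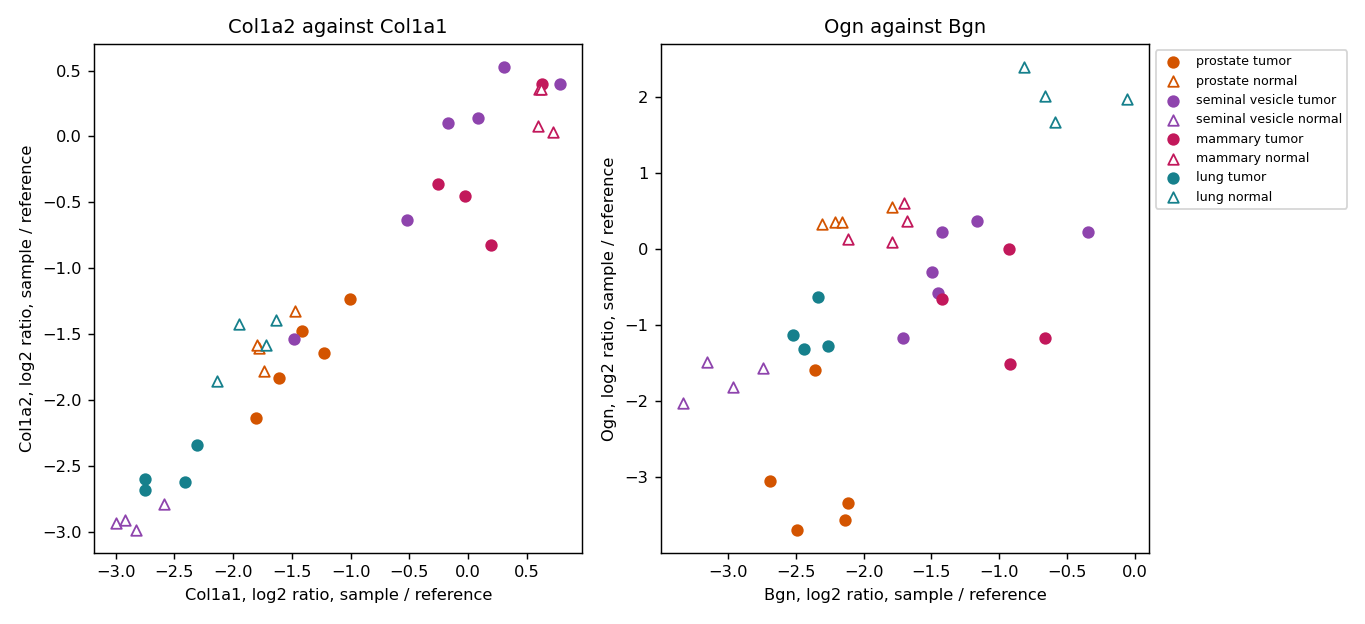
Log2 ratio of sample over reference RNA for 2 pairs of genes on 35 reference arrays, with tumors as filled circles and normal tissue as open triangles, coloured by site. Col1a1 and Col1a2 lie close to 1 line across all groups, while Ogn and Bgn part in prostate, where the tumors are low in Ogn and close to normal tissue in Bgn.

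The proteoglycans were less alike. Bgn and Ogn had r = 0.631 over the reference arrays and 0.191 over deviations from the group means, and on the direct arrays 0.033 over 36 arrays. The nearest genes to Lum were the collagen chains Col14a1 (r = 0.903) and Col5a2 (r = 0.902) and Serpinf1 (r = 0.887). The nearest to Ogn were Mxra8 (r = 0.942), Aldh2 (r = 0.900) and Fmo1 (r = 0.893). Over the reference arrays r of Ogn with the mean of the fibroblast markers was 0.852, and 0.842 over deviations from the group means. For the other genes of the set r over those deviations ran from 0.079 for Lum to 0.492 for Sparc. On the direct arrays r of Ogn with these markers was 0.458, and 0.191 over deviations from the model means. Nearest to Sparc over the reference arrays were Itih4 (r = 0.943), Igfbp4 (r = 0.928) and Plod1 (r = 0.922), a lysyl hydroxylase of collagen.

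Bgn was nearest to Ctla2a (r = 0.900), Cyb5r3 (r = 0.846) and Rac1 (r = 0.843), and Fbln2 to Abcc10 (r = 0.852), Vdr (r = 0.851) and F13a1 (r = 0.844). Tnc, whose reference values barely varied, was nearest to Msh5 (r = 0.809), Rp9 (r = 0.746) and 2810004N23Rik (r = 0.717), and its r with the other 7 genes was below 0 for all 7, from -0.376 to -0.241. Over deviations from the group means it ran from -0.1 to 0.127 on both sides of 0, and on the direct arrays it was above 0 with Col1a1, Col1a2, Sparc and Bgn (0.331 to 0.422) and at -0.474 with Ogn. On the direct arrays Col1a1 and Col1a2 had r = 0.795 over the 33 arrays with both. Nearest genes were ranked there only among the 2391 with a value on all 38 arrays, which leaves out both collagen chains, Bgn and Ogn. Of these the highest r with Col1a1 (r = 0.553), Col1a2 (r = 0.665) and Sparc (r = 0.784) was that of Lamb1, a laminin chain. Among the same genes Bgn was nearest to Runx1 (r = 0.676), with Lamb1 next (r = 0.659). Ogn was nearest in that subset to Usp2 (r = 0.862), Adipoq, the adipocyte hormone adiponectin (r = 0.817), and Cox6a2 (r = 0.806), and Tnc to Plscr1 (r = 0.794), Ms4a6c (r = 0.778) and 6720469N11Rik (r = 0.765).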

How the data were processed

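Total RNA of 73 samples was hybridised to 2-colour cDNA arrays, 35 against a universal reference RNA and 38 against normal mammary gland. Each feature and array had a single log2 ratio, made by the authors before deposit. The base is not in the labels: read as log2, the rule in the series' design text (p under 0.001 and at least 2-fold) chose 2638 of 9573 features, the number that text gives, while natural log gave 3770 and log10 gave 4174. Image analysis, background correction and normalization are not given in the sources used here. The ratio's direction is not stated either. On the reference arrays it was taken from tissue markers. On the direct arrays it was read from the C3(1) tumors. Over 5752 genes their change, as tumor over normal gland, correlated with the mammary change on the reference arrays (Pearson's r of 0.498). Of 9596 features 7486 had 1 symbol (7395 updated through the gene ID, 91 kept as given), 483 had several, 1627 had none, and 8 had no value. Features of a gene were averaged.

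The ratios were fitted without further normalization in limma 3.58.1 (R 4.3.3, data.table version 1.17.8), with 1 fit for all reference arrays and 1 for all direct arrays. Genes needed 3 values in each group compared, 2 with an array left out, and 1 in the first stretch alone, which holds 1 prostate tumor array. Every adjusted p is from limma's moderated test with Benjamini-Hochberg adjustment over all genes tested, and passing means an adjusted p under 0.05. Folds without a sign give the size of the change. The fits were tested on simulated data. Figures were drawn with matplotlib 3.10.9.

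Each of the 8 genes was tested in every comparison of an array set that held its values, but not every value that did not pass is printed. Of each other list up to 3 passing genes of largest change are named, and for each gene up to 3 with the highest r. The genes and lists were chosen with earlier results of these data known, so none is independent evidence. Alternatives were quantile normalization, median centring, only the groups compared, a robust prior, each feature on its own, genes without missing values and the series text's rule. Further ones were each array left out, the replicate block, and stretches of the arrays' mAdb numbers, started by a gap of more than 20. The stretches entered as a factor, a random block or the first stretch alone. Replicate numbers are not known to pair the samples. Deviations of same-numbered arrays of a site correlated at -0.244 to 0.224, and those of same-numbered direct arrays at -0.433 to 0.41. With 4 same-numbered pairs at a site these values cannot exclude pairing. The number of arrays limits the precision.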

Additional observations from a re-analysis of the deposited data

Results flagged for a closer look

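The values of each gene in a group were checked by Dixon's test, and such sets share arrays, so they are not independent. In 7 of 110 sets 1 array stood apart from the others, which chance gives in about 1 set in 20. These were Col1a2 in p53-/- transplant 2 at -0.5439 and in MMTV-myc tumor 3 at -2.5018, and Bgn in MMTV-myc tumor 1 at 1.5534. They were also Lum in prostate tumor 3 at 1.4968, Ogn in normal prostate 3 at 0.5573 and in MMTV-her2/neu tumor 5 at -0.477, and Tnc in normal lung 3 at -0.1714.

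The tumor change in seminal vesicle exceeded that in prostate for 7 genes. On the log2 scale the difference was 2.3791 for Col1a1, 2.8299 for Col1a2, 2.5424 for Sparc, 2.0236 for Bgn, 3.7285 for Lum, 4.9577 for Ogn and 1.3208 for Fbln2. Between lung and mammary tumor changes, 3 genes differed, Bgn by -2.6946, Ogn by -1.9616 and Fbln2 by -2.2105. The p53 and Brca1 models differed from the MMTV oncogene models by -1.2745 for Ogn and 2.0669 for Tnc. C3(1) tumors differed from the MMTV oncogene models by 0.9544 for Bgn and 1.4193 for Tnc. Each difference was tested in the fit itself, and the report names the settings under which a call was lost.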

How the results depend on the processing

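Of 3182 values of single genes under an alternative, 3037 kept their direction, where a call was made, and their side of the threshold. Another 108 no longer passed, 36 newly passed and 1 reversed. The 3182 include F tests, which have no direction. They also include fits of each feature on its own, where each gene of the set, with 1 feature, keeps its change. The reversal was Fbln2 in seminal vesicle tumors against prostate tumors, at -0.147 under quantile normalization. The cause was not tested for any change given here unless the setting names it.

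By the series text's rule the genes passing were 2 in mammary tumors, 3 in her2/neu, 1 in myc, 1 in ras, 1 in PyMT and 0 in C3(1) against MMTV. With only 1 model fitted 4 passed in ras and 4 in PyMT. With the stretch as a random block 3 passed in her2/neu. Among genes without missing values, which leaves fewer genes of the set, 1 passed in ras, 1 in the test among 8 models, 1 in the p53 and Brca1 contrast and 1 in C3(1) against MMTV. In C3(1) against MMTV, median centring left 0, quantile normalization 0 and the robust prior 1. Leaving out 1 array gave 2 to 5 in her2/neu, 1 to 3 in myc, 1 to 3 in ras, 1 to 2 in PyMT and 0 to 2 in C3(1) against MMTV. In the test among 8 models it gave 2 to 4. There Col1a1 newly passed without C3(1) 4, PyMT 1, myc 4 or ras 1, and Bgn without Brca1 2 or 5, C3(1) 4, ras 3 or 4 or p53-/- 1. Under quantile normalization Col1a2 in myc (-1.15) and Sparc in myc (-0.79) and ras (-0.91) newly passed.

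The replicate block left 1 passing in C3(1) against MMTV, where Bgn was lost. It also lost Bgn in her2/neu and Tnc between seminal vesicle and prostate tumors, and gained Col1a1 and Col1a2 in mammary tumors; the numbers are not known to pair samples.

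Some counts over all genes also moved by over 1.5 times. The series text's rule gave 1153 in prostate (4157 reported), 216 in seminal vesicle (2941), 506 in mammary (2485) and 463 in lung tumors (2474), 3264 among sites (5003), 1146 and 432 in the 2 contrasts of tumor change (3156 and 1635) and 853 in seminal vesicle against prostate tumors (4113). In the direct models it gave 300 in p53-/- (830), 492 in p53fp/fp (1310), 762 in Brca1 (2708), 791 in C3(1) (2663), 290 in her2/neu (1012), 380 in myc (1357), 253 in ras (1165) and 332 in PyMT (1220). It gave 1025 among models (2480), 181 in p53 and Brca1 against MMTV (1176) and 187 in C3(1) against MMTV (1018). The counts among sites and among models are from F tests and used p under 0.001 alone, without the fold. Quantile normalization gave 1677 in seminal vesicle tumors, 2187 in p53-/-, 2212 in her2/neu, 1925 in ras, 2165 in PyMT and 658 in C3(1) against MMTV. Only the model fitted gave 1400 in p53-/-, 1613 in Brca1, 2347 in her2/neu and 697 in myc. The stretch gave 871 in seminal vesicle tumors and 1730 in their contrast with prostate as a fixed factor, and 447 in p53-/-, 499 in p53fp/fp and 694 in p53 and Brca1 against MMTV as a random block. Genes without missing values gave 1076 among models, 559 and 530 in the same 2 contrasts with MMTV. Leaving out 1 array gave 526 to 753 in p53-/-, 735 to 1143 in p53fp/fp, 623 to 755 in her2/neu, 817 to 1456 in myc, 588 to 1173 in ras, 723 to 1161 in PyMT and 397 to 1253 in C3(1) against MMTV.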
